A study of Xenopus laevis with 12 samples.

Results

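Promoter peaks of Sox3 are the ChIP-seq peaks whose deposited annotation places them at a transcription start site (TSS), the class that HOMER names promoter-TSS. There were 11307 such peaks among 129376 in the lists of both stages, with 10677 of 124076 peaks in blastula stem cells at stage 9 and 630 of 5300 peaks in neural plate border explants at stage 11.5. Xenopus laevis animal pole explants of wild-type genotype were used throughout. At stage 9, 3 libraries came from explants that received mRNA for Myc-tagged Sox3 while the 3 control libraries were from explants for which the labels give no treatment. At stage 11.5, 3 libraries came from explants that received sox3, wnt8a and chordin mRNA, and the 3 control libraries from explants with wnt8a and chordin mRNA but no sox3. The precipitated protein was thus the tagged Sox3 made from injected mRNA, not the endogenous protein, and 50 explants were pooled for each sample. Peak positions carry no expression values, so the labelled cell types could not be checked against markers. The lists hold no read counts, and each stage is represented by 1 list, which by the study's methods was called on its libraries together, so depth is unknown, no spread between replicates can be given and no test between the stages was made. Stages were also sequenced on different instruments, and only the stage 11.5 explants received wnt8a and chordin mRNA. Stage, these mRNAs, sequencer and depth cannot be told apart. All intervals below cover counting error only and treat peaks as independent.

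Sox3 belongs to the SoxB1 group of transcription factors, which bind DNA in the minor groove through an HMG domain and usually act with a partner factor. SoxB1 proteins maintain the pluripotent state of early ectoderm and later mark neural progenitors. Much of the binding of such factors lies in enhancers, in introns or between genes, while the promoter next to the TSS is where RNA polymerase is assembled. Stage 9 lies shortly after the onset of zygotic transcription in the frog, and stage 11.5 is mid-gastrula, when the neural plate border is being set apart from the neural plate and the epidermis. The lists name transcripts by internal numbers that could not be matched to genes, so peaks are described by their positions on the 9.2 genome.

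Promoter peaks were concentrated on the TSS itself at both stages, and their positions were nearly the same. The class holds every peak whose centre lay between -1000 and 100 bp of its nearest TSS, where negative values are upstream, 9898 at stage 9 and 576 at stage 11.5. The median signed distance was -105 bp at stage 9 (quartiles -360 and 8 bp) and -84 bp at stage 11.5 (quartiles -303 and 20.8 bp). The difference of 21 bp had a 95% interval from -3.74 to 40.0 bp, which included 0. Centres within 100 bp of the TSS made up 41.9% of promoter peaks at stage 9 (Wilson 95% interval 41.0 to 42.8%) and 44.0% at stage 11.5 (40.1 to 47.9%). Upstream centres made up 72.7% and 69.7%, a share that follows in part from the class, which reaches further upstream than downstream.

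Within the class the number of peaks fell steeply with distance. Among all peaks with a nearest TSS, there were 2226.5 stage 9 peaks per 100 bp in the 200 bp around the TSS and 382.8 per 100 bp between 500 and 1000 bp upstream, a ratio of 5.82. At stage 11.5 the same densities were 138 and 21.8 per 100 bp, a ratio of 6.33. The gradient was thus similar in lists of very different length. Between 500 and 1000 bp from the TSS, peaks were more frequent downstream than upstream, by a factor of 1.50 at stage 9 and 1.45 at stage 11.5. Without the promoter peaks in the downstream range, these ratios were 1.43 and 1.37. Next to the TSS this was not so. The 100 bp upstream held 2340 stage 9 peaks and the first 100 bp downstream 2113, and at stage 11.5 the numbers were 140 and 136. The upstream limit of the class did not mark a step in the data. At stage 9, 362 members lay in its outermost 100 bp and 325 peaks in the next 100 bp outside, and at stage 11.5 the numbers were 13 and 18. The downstream limit cut through the slope of the maximum, with 2096 stage 9 members in its last 100 bp and 1134 peaks outside the class in the next 100 bp.

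**Figure D1:**
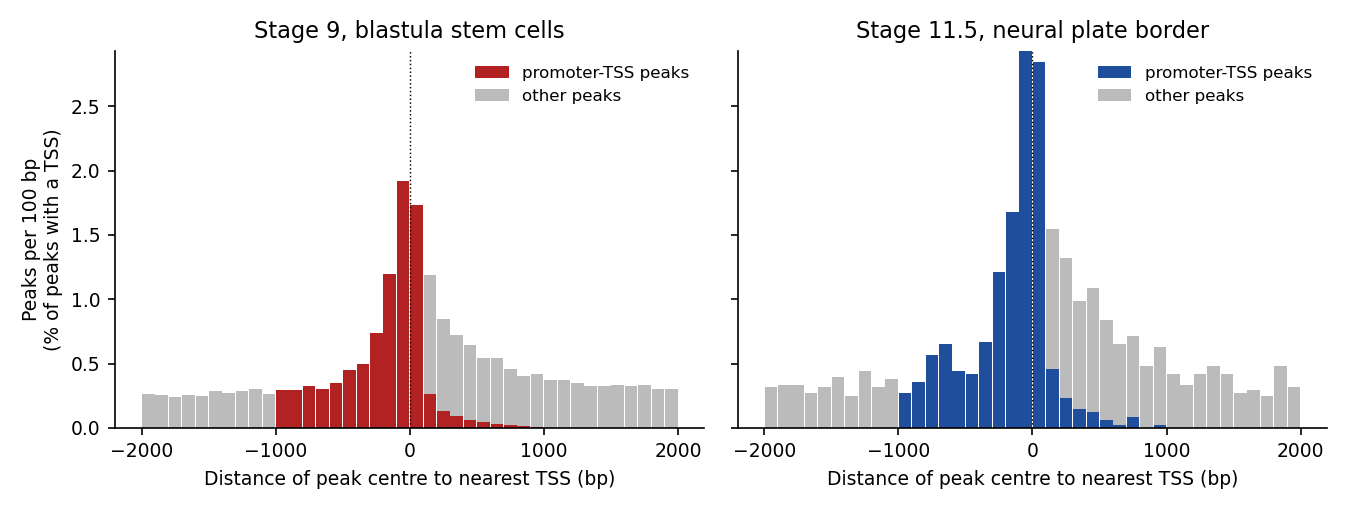
Density of Sox3 peak centres around the nearest TSS in 100 bp bins, as a percentage of the peaks with a TSS in each list (left, stage 9; right, stage 11.5). Coloured bars are promoter-TSS peaks and grey bars other peaks; both lists have their maximum in the 100 bp upstream of the TSS, at 1.92% and 2.93% of peaks.

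Many promoter peaks were annotated to a transcript other than the one with the nearest TSS. The nearest TSS lay more than 100 bp upstream of the centre for 779 stage 9 peaks (7.30%) and for 54 stage 11.5 peaks (8.57%). In all of these, the transcript that gave the promoter annotation was not the transcript with the nearest TSS, as the limits of the class require. Over all promoter peaks, the annotated and the nearest transcript differed for 23.8% at stage 9 and 24.1% at stage 11.5. Start sites that lie close together, as in divergent genes or alternative promoters, can give such a mismatch, and the lists do not say which of these applies.

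Promoter peaks were narrower and had lower scores at stage 11.5 than at stage 9, as did the other peaks. The median width was 240 bp at stage 9 (quartiles 137 and 402 bp) and 132 bp at stage 11.5 (quartiles 90 and 218.75 bp), a difference of -108 bp (95% interval -117 to -96.3 bp). The peak covered the nearest TSS in 46.7% of stage 9 promoter peaks and in 32.9% at stage 11.5. The median Peak Score, the peak caller's whole-number score with a maximum of 1000, was 471 at stage 9 and 338.5 at stage 11.5. Scores are relative to the controls of each list, so the difference of -132.5 (95% interval -153 to -109) sets 2 lists side by side and does not compare occupancy. Among peaks with an area of at least 200, only 43 of them at stage 11.5 promoters, the width difference was -79 bp (-157 to 50.2 bp) and the score difference 67 (-6.76 to 89), so there neither could be seen beyond counting error.

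Compared with the other peaks of the same list, promoter peaks had similar widths but reached the highest scores less often. At stage 9 the median width was 240 bp at promoters and 225 bp elsewhere, and at stage 11.5 it was 132 and 135 bp. The maximum score was reached by 15.2% of stage 9 promoter peaks (14.5 to 15.9%) and 19.1% of the other peaks (18.9 to 19.3%). At stage 11.5 these shares were 8.57% (6.63 to 11.02%) and 21.5% (20.3 to 22.7%), so the gap was wider in the later list. The classes differed, however. The upper quartile of the stage 11.5 score was 504.5 at promoters, 551 in first introns, 549 in later introns and 519 in exons. It was 763.75 in intergenic sequence, 827 at termination sites and 1000 for peaks with no annotated transcript. At stage 9 it was 762 at promoters, 756 in exons and 836 or more in the other classes. The area of a peak, taken as score times width divided by 1000, had a median of 39.9 at stage 11.5 promoters and 52.8 at the other stage 11.5 peaks, and of 94.4 and 99.2 at stage 9. Areas at the maximum score are lower bounds. Unplaced scaffolds held 18.9% of the other stage 11.5 peaks and 12.5% of the promoter peaks, and their part in this result was not tested.

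Most stage 11.5 promoter peaks lay on a site that was already occupied at stage 9. An overlap of 1 bp or more with a stage 9 peak was found for 436 of the 630 (69.2%, 65.5 to 72.7%), beside 65.2% of all stage 11.5 peaks. The share was 64.7% for the peaks outside promoters, a difference of 4.50 percentage points (Newcombe 95% interval 0.543 to 8.24). On the assembled chromosomes the difference was -0.0953 points (-4.31 to 3.87), whereas on scaffolds 64.6% of promoter peaks and 42.2% of the other peaks were shared. The difference was also within counting error when 50% of the stage 11.5 peak had to be covered (1.43 points, -2.66 to 5.38) and when peaks within 500 bp of a TSS stood in for the annotated class (2.51 points, -1.29 to 6.15).

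Set against single classes, promoter peaks at stage 11.5 lay below intron peaks and above exon and intergenic peaks. The lowest share, 38.5%, was that of peaks with no annotated transcript (difference 30.7 points, 25.1 to 36.0), and against the other peaks without these, of which 68.0% were shared, the promoter difference was 1.16 points (-2.80 to 4.93). Peaks in first introns were shared in 77.1% of cases and peaks in later introns in 73.8%, both above the promoter share, with differences of -7.87 points (-12.9 to -2.78) and -4.59 points (-9.14 to -0.111). Exonic peaks were shared less often (56.5%, difference 12.7 points, 5.91 to 19.5), and intergenic peaks also (64.5%, difference 4.69 points, 0.462 to 8.74). Peaks at transcription termination sites, at 68.1%, could not be separated from promoter peaks (difference 1.08 points, -5.71 to 8.27). These contrasts with single classes include the scaffolds. They were not repeated on the assembled chromosomes alone, where the difference from all other peaks was -0.0953 points.

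**Figure D2:**
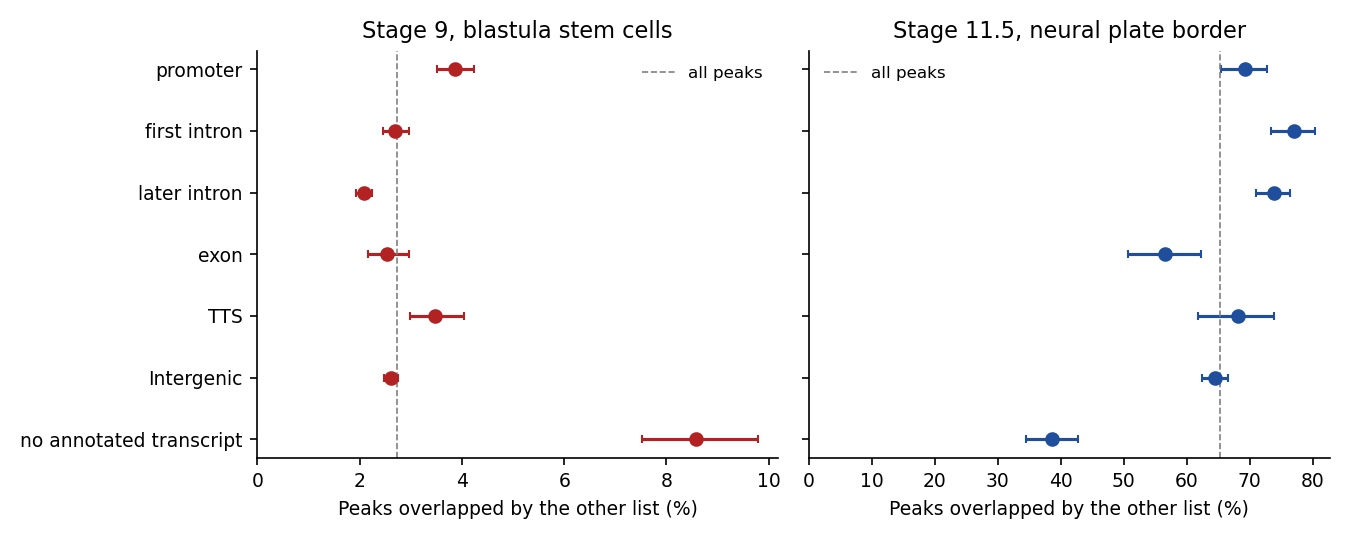
Share of Sox3 peaks overlapped by 1 bp or more by a peak of the other list, by annotated class, at stage 9 (left) and stage 11.5 (right), with Wilson 95% intervals as bars and the share of all peaks as a dashed line. Promoter peaks stand at 3.86% and 69.2%, above the dashed line in the left panel, and below both intron classes in the right panel.

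A small fraction of stage 9 promoter peaks was found again at stage 11.5, and this fraction exceeded that of the other stage 9 peaks as a whole. With 5300 peaks at stage 11.5 and 124076 at stage 9, a small fraction follows from the list lengths for peaks of any class. It cannot be read as a loss of sites. Of 10677 peaks, 412 (3.86%, 3.51 to 4.24%) were overlapped by a stage 11.5 peak, beside 2.72% of all stage 9 peaks. The share outside promoters was 2.61%, a difference of 1.24 points (Newcombe 95% interval 0.882 to 1.64), and it was 1.19 points on the assembled chromosomes (0.828 to 1.59). Promoters made up 8.61% of the stage 9 list and 11.9% of the stage 11.5 list, and 386 of the 412 had a promoter peak as best match. The difference thus in part restates the make-up of the shorter list and is not a separate result. First introns (2.70%), later introns (2.08%), exons (2.54%) and intergenic sequence (2.61%) each lay below promoters, with intervals of the difference above 0. Termination sites, at 3.48%, again did not (difference 0.383 points, -0.275 to 0.999). Peaks with no annotated transcript went the other way and were found again more often than promoter peaks (8.59%, difference -4.73 points, -5.98 to -3.59). The difference from all other peaks was 0.149 points (-0.0221 to 0.354) when a stage 11.5 peak had to cover 50% of the stage 9 peak, and 0.126 points (-0.156 to 0.521) among peaks with an area of at least 200 in both lists, so under these settings it was within counting error.

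The share of promoter peaks found again depended strongly on the size of the stage 9 peak. In the smallest of 10 equal classes of area over all stage 9 peaks, 3 of 1091 promoter peaks (0.275%) were overlapped, and in the largest class 200 of 1079 (18.5%, 16.3 to 21.0%). The other peaks of the largest class were overlapped in 14.4% of cases. Promoter peaks had the higher share in 10 of 10 classes, and the interval of the difference lay above 0 in 6 of them. The larger part of promoters in the stage 11.5 list enters this comparison too, and its weight was not tested. If the other peaks had been distributed over the classes as promoter peaks were, their share would have been 2.58%, compared with 2.61% as observed. With 10 classes of width in place of area, promoters had the higher share in 9, with the interval above 0 in 4. At stage 11.5, in 5 classes of area, promoter peaks were shared more often than other peaks by 13.9 points (4.41 to 21.3) in the fourth class. In the class of largest area the difference was 13.7 points (3.85 to 20.9), and in the remaining 3 classes the interval held 0. With 5 classes of width the interval lay above 0 only in the narrowest (16.6 points, 7.05 to 26.0). The fourth class gave -0.304 points (-8.36 to 6.28) and the widest 1.72 points (-5.53 to 6.77). Stage 11.5 peaks with no annotated transcript had a median area of 95 and were shared in 38.5% of cases. Their part in the differences by area was not tested.

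**Figure D3:**
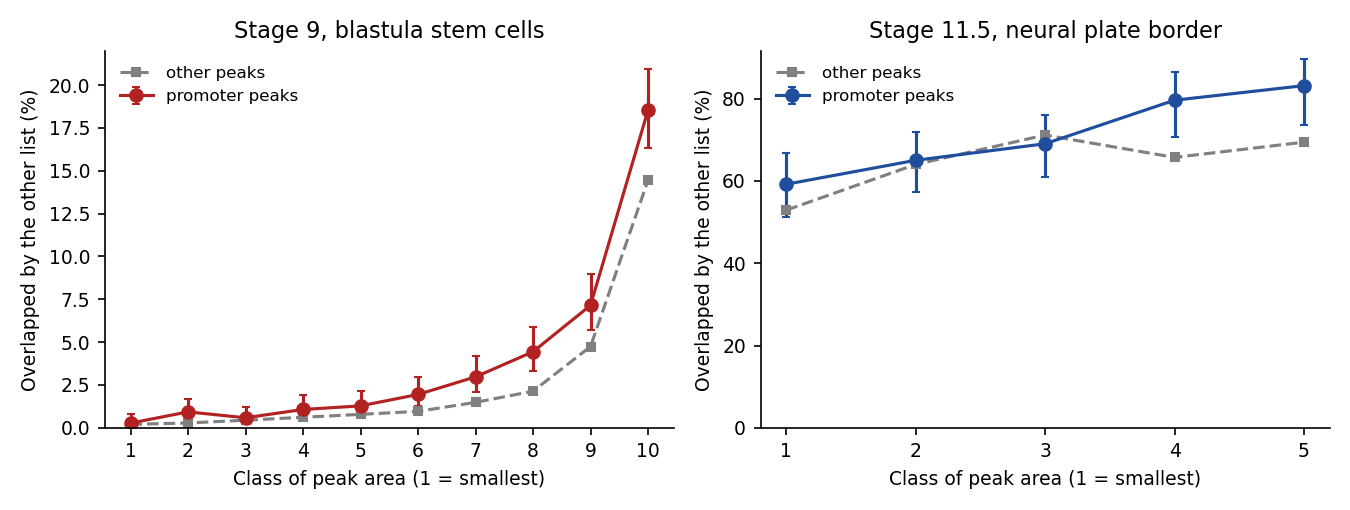
Share of peaks overlapped by the other list in classes of equal size by peak area, from the smallest (1) upwards, for promoter peaks (coloured, with Wilson 95% intervals) and other peaks (grey squares), at stage 9 (left, 10 classes) and stage 11.5 (right, 5 classes). At stage 9 the promoter share went from 0.275% to 18.5% and lay above that of the other peaks in each class.

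No dependence on position within the promoter could be seen beyond counting error at stage 9. More than 500 bp upstream 3.55% of the peaks were overlapped at stage 11.5 (2.81 to 4.48%), and in the 100 bp upstream of the TSS 3.63% (2.95 to 4.47%). The highest share was 4.54%, in the next 100 bp upstream (3.58 to 5.73%), and its interval overlapped those of all other distance groups. Peaks that covered the TSS were overlapped more often than those that did not, at 5.65% and 2.29% (difference 3.36 points, 2.62 to 4.13). They were also wider, with medians of 325 and 177 bp. Within the 10 classes of area the share was higher for peaks that covered the TSS in 8 classes, with the interval of the difference above 0 in 1, and the part of area in this difference was not tested.

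At stage 11.5, the promoter peaks with no stage 9 counterpart lay nearer to the start site. Of 6 distance groups, the one between 200 and 500 bp upstream had the highest shared percentage, 78.2% (69.6 to 84.9%), and the one from the TSS to 100 bp downstream the lowest, 62.0% (53.7 to 69.7%), with intervals that just overlapped. Unshared stage 11.5 promoter peaks had a median distance of -44.5 bp (95% interval -76 to -18 bp) and shared ones of -108.5 bp (-130 to -82 bp). The unshared peaks were narrow, with a median width of 95.5 bp compared with 159 bp, and their median score was 368, compared with 322. Peaks were called with a minimum area of 20, so a narrower peak needs a higher score to be listed. The part of this limit in the score difference was not tested. Of the 194 unshared peaks, 79 (40.7%) lay within 1 kb of a stage 9 peak without touching it, and the median gap was 1765 bp. In the opposite direction 219 of 10265 unshared stage 9 promoter peaks (2.13%) had a stage 11.5 peak within 1 kb. These shares refer to lists of 124076 and 5300 peaks, so they cannot be set against each other. Unshared peaks outside promoters were not counted in this way.

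Where a promoter site was found in both lists, the later peak was usually a narrow peak inside the earlier one. The best-matching stage 9 peak was itself a promoter peak for 397 of the 436 shared stage 11.5 peaks (91.1%), an exon peak for 18 and a termination-site peak for 12. The stage 11.5 peak lay wholly within its stage 9 partner in 73.4% of cases and contained it in 3.67%. In the 397 pairs of promoter peaks the stage 9 peak had a median width of 552 bp (quartiles 382 and 757 bp) and the stage 11.5 peak of 161 bp (quartiles 102 and 243 bp), and the stage 9 peak was the wider in 361 (90.9%). The median of the ratio of widths was 3.28 (95% interval 2.96 to 3.57). An overlap rule of 1 bp favours wide peaks, and shared stage 9 promoter peaks had a median width of 543.5 bp, unshared ones of 234 bp. Some stage 9 peaks entered more than 1 pair. Peaks outside promoters were not paired in this way, so these traits cannot be called particular to promoters. The centres lay a median of 92.5 bp apart and within 50 bp of each other in 117 pairs.

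A displacement along the gene could not be seen beyond counting error. In the 341 pairs with the same nearest transcript, the stage 11.5 centre was displaced by a median of -11 bp relative to the TSS, with a 95% interval from -28 to 1 bp. The stage 9 member of a pair was at the maximum score in 241 of the 397 pairs (60.7%), compared with 15.2% of all stage 9 promoter peaks, and the stage 11.5 member in 32 (8.06%). At stage 11.5 the maximum score was reached by 8.72% of shared (6.42 to 11.7%) and 8.25% of unshared promoter peaks (5.14 to 13.0%), whereas the shared peaks had the larger areas, with medians of 44.2 and 32.7.

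**Figure D4:**
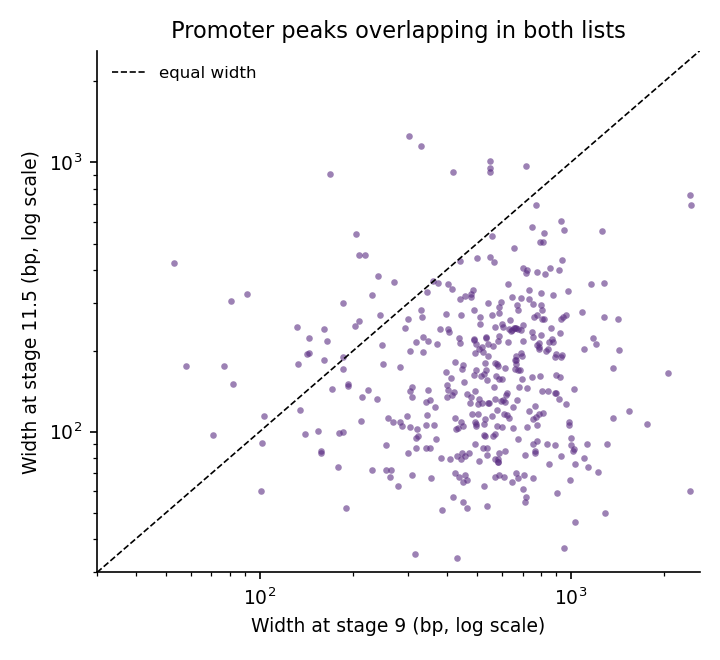
Widths at stage 9 and stage 11.5 of the 397 pairs of overlapping promoter peaks, in bp on log axes, with 1 point per pair and the line of equal width dashed. In 361 pairs the point lies below the line, that is, the stage 9 peak is the wider.

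The largest promoter peaks included pairs in which the stage 9 peak was the wider and pairs that went the other way. Peaks were taken by area on the assembled chromosomes of the 9.2 genome, the shared ones from the stage 11.5 peaks that overlapped a stage 9 promoter peak. This leaves out 5 larger pairs of promoter peaks on scaffolds, and also the largest shared stage 11.5 promoter peak of all, chr2S:152381255-152382929, with 1675 bp and the maximum score, whose stage 9 partner of 606 bp, also at the maximum, was annotated to a termination site. Next after the largest pair on the assembled chromosomes, chr4L:127407444-127408136 (693 bp) and chr1L:216914588-216915165 (578 bp), were at the maximum score and had stage 9 partners of 773 and 753 bp, also at the maximum. Their signed distances to the TSS were -294 and -413 bp at stage 11.5 and -297 and -319 bp at stage 9. A peak across a start site, chr8L:1333791-1334295, with its centre at -12 bp, had a score of 914 and lay within a stage 9 peak of 813 bp. In the chr4L and chr1L pairs and in this chr8L pair the stage 9 peak was the wider, as in most pairs. The excess was smaller than the median ratio of widths of 3.28. The choice by area at stage 11.5 favours pairs with a wide stage 11.5 peak, so these pairs do not represent the 397.

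The largest of these pairs went the other way. It was chr5S:59107011-59107916, 906 bp wide and at the maximum score, whereas its stage 9 partner at chr5S:59107393-59107560 had the same score and a width of 168 bp. The same was true of chr8L:96875689-96876141, with 453 bp at stage 11.5 and 218 bp at stage 9. In all, 36 of the 397 pairs had a stage 11.5 peak as wide as or wider than its partner, and 22 of these were on assembled chromosomes.

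Among stage 11.5 promoter peaks with no overlapping stage 9 peak, the 5 largest on the assembled chromosomes had areas from 252 to 337. With scaffolds included, the largest area was 415. The widest, chr3L:115129609-115130160 (552 bp, score 514, centre at -342 bp), was 5284 bp from the nearest stage 9 peak. Another, chr3S:7607648-7607923 (276 bp, maximum score, centre at -287 bp), was 14779 bp from the nearest, and its transcript had a pair of promoter peaks at stage 11.5 and no stage 9 peak of any class. The other 3 were closer, at 210, 257 and 2215 bp, so 2 of them would count as shared under a limit of 1 kb. On the assembled chromosomes, the largest stage 9 promoter peaks without a stage 11.5 peak were far wider. The 5 largest were all at the maximum score and between 1595 and 1907 bp wide, led by chr5L:71863302-71865208, whose centre was at -849 bp. Another of them, chr7S:64755705-64757299, lay across a start site, with its centre 81 bp downstream. Their nearest stage 11.5 peaks were between 8197 and 476022 bp away.

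Promoter peaks were often the only Sox3 peak of their transcript at stage 11.5, and less often so at stage 9. By nearest TSS, 10008 transcripts had a promoter peak at stage 9, of the 45449 with any peak, and 608 at stage 11.5, of 3835. A non-promoter peak was assigned to 5699 of the stage 9 promoter transcripts (56.9%, Wilson 95% interval 56.0 to 57.9%) and to 88 of those at stage 11.5 (14.5%, 11.9 to 17.5%). The stage 9 list is much longer, and its share fell to 38.9% when only peaks with an area of at least 200 were counted, against 16.3% at stage 11.5. The whole lists differed likewise, with 121735 peaks on 45449 transcripts at stage 9 and 4773 peaks on 3835 transcripts at stage 11.5. Transcripts without a promoter peak were not counted in this way, so few companion peaks cannot be called particular to promoter transcripts. Intergenic peaks were the commonest companions, at 30.3% of stage 9 and 7.73% of stage 11.5 promoter transcripts. First introns held a companion peak for 16.7% and 1.97%. Intergenic peaks were also the largest class of each whole list, with 50551 of 124076 peaks at stage 9 and 2094 of 5300 at stage 11.5. The rank of intergenic companions is thus not particular to promoter transcripts. A mean of 1.76 non-promoter peaks per promoter transcript was found at stage 9, with a maximum of 50, and of 0.217 at stage 11.5, with a maximum of 6.

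Promoter and non-promoter binding nonetheless went together at stage 11.5. Among the transcripts with any stage 9 peak, 84 of 498 with a stage 11.5 promoter peak also had a stage 11.5 non-promoter peak (16.9%), compared with 6.65% of the 44951 without one. The difference was 10.2 points (Newcombe 95% interval 7.17 to 13.8). The mean number of stage 9 peaks was 3.205 in the first group and 2.67 in the second, and the part of this in the result was not tested.

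**Figure D5:**
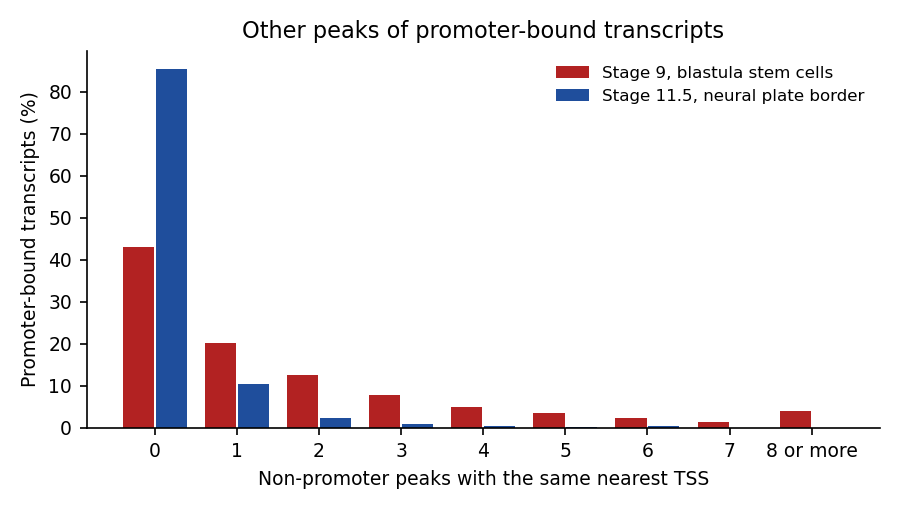
Number of non-promoter peaks assigned to the same nearest TSS as a promoter peak, as a percentage of promoter-bound transcripts at stage 9 (10008) and stage 11.5 (608). No companion peak was found for 43.1% at stage 9 and 85.5% at stage 11.5.

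Most transcripts with a stage 11.5 promoter peak already had one at stage 9. Of the 608 stage 11.5 promoter transcripts, 369 (60.7%, 56.8 to 64.5%) also had a promoter peak at stage 9, 129 (21.2%) had stage 9 peaks only outside the promoter, and 110 (18.1%) had none. Over all 3835 transcripts with a stage 11.5 peak, 947 had a stage 9 promoter peak and 2541 only other stage 9 peaks. Promoter transcripts thus had a stage 9 promoter peak more often than the whole list, but also more often had no stage 9 peak. In 333 of the 369 (90.2%) the stage 11.5 peak overlapped a stage 9 promoter peak. Seen from stage 9, a stage 11.5 promoter peak was found for 3.69% of transcripts with a stage 9 promoter peak and for 0.364% of those with only other peaks, a ratio of 10.1. For any stage 11.5 peak the shares were 9.46% and 7.17% (difference 2.29 points, 1.67 to 2.94). Overlapping peaks mostly had the same class and nearest transcript, and in 333 of the 369 transcripts the promoter peaks overlapped. The ratio of 10.1 thus largely restates the overlap of sites and is not a separate result.

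A later promoter peak was more frequent at transcripts that also had several non-promoter peaks at stage 9. A stage 11.5 promoter peak was present for 2.99% of the 4309 stage 9 promoter transcripts without a non-promoter peak, for 3.87% of those with 1 to 4 and for 5.58% of the 1130 with 5 or more. The difference between the last and the first was 2.58 points (1.27 to 4.15). Several promoter peaks at one start were rare. At stage 9, 642 transcripts (6.41%) had 2 or more and 27 had 3, and at stage 11.5 the numbers were 20 (3.29%) and 2. Neighbouring promoter peaks of a transcript were separated by a median of 182 bp at stage 9 and 152.5 bp at stage 11.5. Gaps of 100 bp or less were absent from both lists. The part of peak calling in this lower limit was not tested. The limit thus cannot be called a trait of promoters, and these counts and medians hold only for peaks as listed.

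The transcript with the most stage 11.5 peaks among those with a promoter peak at both stages, listed as rna95949 on chromosome 5L, had 2 promoter and 6 non-promoter peaks at stage 11.5 and 1 promoter and 9 non-promoter peaks at stage 9. One stage 11.5 promoter peak, chr5L:123001718-123002013, had its centre at -788 bp and a score of 611 and lay within the stage 9 promoter peak chr5L:123001664-123002334, which was at the maximum score. The other, chr5L:123000984-123001085, was 43 bp downstream of the TSS, had a score of 357 and overlapped no stage 9 peak. The non-promoter peaks of both stages lay mainly in later introns, from 7304 bp downstream of the TSS onward at stage 11.5, and 4 of those 6 stage 11.5 peaks overlapped a stage 9 peak. The next, rna93445, was on a short unplaced scaffold with 1 promoter and 5 other peaks at stage 11.5 within the first 3199 bp, 5 of the 6 at the maximum score.

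Xenopus laevis is an allotetraploid with a long (L) and a short (S) set of homeologous chromosomes. The L set held 53.4% of stage 9 promoter peaks (5697) and the S set 39.1% (4174), with the rest on scaffolds. At stage 11.5 the numbers were 315 (50%) and 236 (37.5%). Of the other peaks, L held 51.0% at stage 9 and 46.8% at stage 11.5, and S held 41.9% and 34.3%. In 9 of 9 homeologous pairs at stage 9 and in 8 of 9 at stage 11.5 the L chromosome had more promoter peaks. The exception at stage 11.5 was chromosome 5, with 34 on 5L and 41 on 5S. Counted over peaks of all classes, the L chromosome had more in every pair at both stages, so the excess on L was not particular to promoters. Promoters made up a slightly larger part of the peaks on L than on S at stage 9 (8.96% and 8.08%, difference 0.882 points, 0.558 to 1.21), and at stage 11.5 the difference was -0.259 points (-2.29 to 1.73). The share of promoter peaks found in the other list could not be separated between L and S, with differences of -0.0736 points at stage 9 (-0.839 to 0.667) and -3.04 points at stage 11.5 (-10.6 to 4.74).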

How the data were processed

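Per the methods and the submitters' processing notes, the authors used fastp for trimming and bowtie2 for alignment (genome 9.2), and called peaks with Genrich (Sox3 libraries against control libraries, minimum area 20) and annotated them with HOMER. Per the file headers the stage 9 list was made from all replicates, and the header for stage 11.5 names none. The deposited values are 1 list per stage with positions, the peak caller's score (maximum 1000) and the signed distance to the nearest TSS. Explants were pooled (50 per sample).

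Members were peaks whose annotation begins with promoter-TSS. Width, area and overlap (1 bp or more) were obtained in Python 3.11.15 (pandas 2.3.3, scipy 1.17.1, numpy 2.4.6, matplotlib 3.10.9). Shares carry Wilson and differences Newcombe 95% intervals, and medians carry order-statistic intervals; those of a difference of medians combine the 2 intervals in quadrature. The overlap rules and intervals were tested on simulated data. No p-value was computed, since there is no replicate. Members, comparisons and peaks to describe (the 5 largest by area in each of 3 groups, and 2 transcripts by number of peaks) were chosen with earlier results of these data known. Of 10247 transcript identifiers of promoter peaks, 0 were found in the RefSeq gene table, which follows the later assembly v10.1, so genes are not named. No sequence of the 9.2 genome was used here. Depth per sample is unknown.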

Additional observations from a re-analysis of the deposited data

How the results depend on the processing

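Of 68 comparisons of a result with an alternative, 36 stayed within the interval of the main value, 29 moved beyond it and 3 changed sign. All alternatives were planned with the design except cover of 50% of the shorter peak and the comparison with other peaks that have an annotated transcript, which were chosen after the data were seen. The cause of a change was not tested unless it follows from the setting, as with fewer peaks.

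The shared percentage of stage 11.5 promoter peaks was 62.5% when 50% of the peak had to be covered, 65.2% with 50% of the shorter peak, 62.9% by midpoint, 81.7% within 1 kb, 57.4% in the upper part of each list by score (split at the median) and 63.0% when only promoter peaks of the other list counted. For stage 9 it was 0.908% with 50% covered, 1.90% by midpoint, 5.91% within 1 kb, 2.82% in the upper part by score and 0.853% with a minimum area of 200. The difference from other peaks at stage 11.5 was 9.99 points within 1 kb, 13.5 points with a minimum area of 200 and -0.0953 points on the assembled chromosomes. At stage 9 it was 0.149 points with 50% covered, 0.264 by midpoint, 2.47 within 1 kb, 0.609 in the upper part by score and 0.126 with a minimum area of 200.

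Promoter transcripts with a non-promoter peak made up 11.3% at stage 11.5 when only peaks within 10 kb counted. At stage 9 they made up 46.8% within 10 kb, 53.1% with intronic and intergenic peaks only, 44.9% in the upper part by score and 38.9% with a minimum area of 200. The difference in median distance (stage 11.5 minus stage 9) was -91 bp with a minimum area of 200. That in median width was -214.5 bp in the upper part by score, -79 bp with a minimum area of 200 and -384.5 bp among shared promoter peaks. That in median score was -240 in the upper part by score, 67 with a minimum area of 200, -105 for centres within 500 bp of a TSS and -678 among shared promoter peaks. With a minimum area of 200 only 43 stage 11.5 promoter peaks remained.

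No paired analysis was possible because the libraries of a stage enter 1 common list whose columns carry no replicate. Leaving out single replicates was likewise not possible.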

Other observations

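The surroundings of the stage 11.5 promoter peak of 906 bp on chromosome 5S were examined after its values were seen. Within a window of 20 kb on either side of that peak, the stage 11.5 list held 7 peaks, all at the maximum score. They lay between positions 59107011 and 59120209 of the 9.2 genome and covered 4700 bp. The stage 9 list held 11 peaks in the same window, between positions 59095407 and 59117013. Of these, 7 were at the maximum score, and the 11 peaks covered 1964 bp. One stage 11.5 peak of 1107 bp at a transcription termination site spanned stage 9 peaks of 126, 226 and 305 bp, and the promoter peak of 906 bp spanned a stage 9 promoter peak of 168 bp and a first-intron peak of 89 bp. A second stage 11.5 promoter peak in the window, chr5S:59112378-59112714, with 337 bp, touched no stage 9 peak but lay 210 bp from one. This is the reverse of the usual pair of promoter peaks, in which the stage 9 peak was the wider, and no value in the lists shows what sets the window apart.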
